A study of Mus musculus with 6 samples.

Results

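Solute carriers are membrane proteins that move amino acids, sugars, ions, metals, vitamins and nucleotides across the plasma membrane and the membranes of organelles, and they are numbered by family. Here they are the genes whose symbol is Slc followed by a family number, a letter and a member number, with a mean normalized count of 50 or more in the embryonic mouse pancreas. Of 14681 genes in the authors' deposited table, 257 carried such a symbol and 120, of 33 families, reached that mean count. The genes were chosen by their mean counts over all libraries, which are therefore given as a description; the comparison between the groups was not used to choose them.

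The study compared the dorsal pancreas of knockout and control mouse embryos of strain C57BL/6 at embryonic day 18.5, with 3 samples labelled Knockout and 3 labelled Control, taken from 3 embryos of each kind. The knockout is called Dpy30∆P in the labels, and Dpy30 encodes a shared subunit of the Trithorax group complexes that methylate histone H3. The labels do not give the allele, the driver of the deletion or the genotype of the control embryos. One comparison was made, knockout against control, by bulk RNA sequencing of ribosomal RNA-depleted total RNA. The authors deposited 1 mean per gene over all 6 libraries and 1 fold change, so values per sample and library depths were not analysed here.

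Acinar cells of the pancreas take up large amounts of amino acids to make digestive enzymes, and load zinc and other metals into the compartments of the secretory pathway. Duct cells secrete bicarbonate, using bicarbonate carriers and anion exchangers beside the channel Cftr. Beta cells take up glucose through a carrier of family 2 and store zinc with insulin through the exporter Slc30a8.

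The table does not state which group is the numerator of its fold changes. A negative value is read here as lower in the knockout, as knockout over control; with the opposite ratio each direction given here would be turned round. Dpy30 itself, with a mean normalized count of 29.4 in the authors' deposited table, was at 0.49 ± 1.64 (SE) on the reconstructed log2 scale explained next, and its 95% interval of -2.73 to 3.71 did not settle the sign. The deposited log2 fold changes are shrunken towards 0: 104 of the 120 carriers lay within 0.1 of 0 in the authors' deposited table. Sizes are therefore given as reconstructed, unshrunken log2 fold changes with their standard errors. These could be had for 115 carriers. The others are Slc18b1, Slc16a7, Slc8b1 and Slc27a2, whose reconstruction missed the deposited p, and Slc17a5, which has no p in the authors' deposited table.

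By level per length, metal, amino acid and mitochondrial carriers led. Mean normalized counts were divided by the longest protein-coding GENCODE M21 transcript of each gene, and these levels pool knockout and control libraries. Slc39a7, a zinc carrier that releases zinc from the endoplasmic reticulum, was the highest at 894 normalized counts per kilobase. Slc25a5, the adenine nucleotide carrier of proliferating cells, had 666 per kilobase, and Slc38a10, a relative of the glutamine carriers, had 307 per kilobase. Slc25a3, the mitochondrial phosphate carrier, had 290 per kilobase, followed by Slc38a6, a carrier of the glutamine family, at 242 per kilobase. Slc39a5, a zinc importer of the basolateral membrane of acinar cells, had 227 per kilobase, and Slc3a2, the heavy chain that brings several amino acid carriers to the surface, had 191 per kilobase. Slc38a2 (179 per kilobase), Slc7a5 (164) and Slc4a2 (142), an amino acid cotransporter, the light-chain partner of Slc3a2 and a chloride/bicarbonate exchanger, completed the first 10. Of these 10, 5 carry amino acids, 2 metals, 2 work in mitochondria and 1 carries bicarbonate. No spread over samples is available, so whether neighbours in this order differ was not tested. Slc25a5 has many near-identical pseudogene copies among which reads can be split, and Slc38a6 overlaps Trmt5, so these levels are uncertain. At the other end, Slc5a3, a myo-inositol carrier, had 5.00 per kilobase, and Slc16a7 had 5.43 per kilobase.

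**Figure D1:**
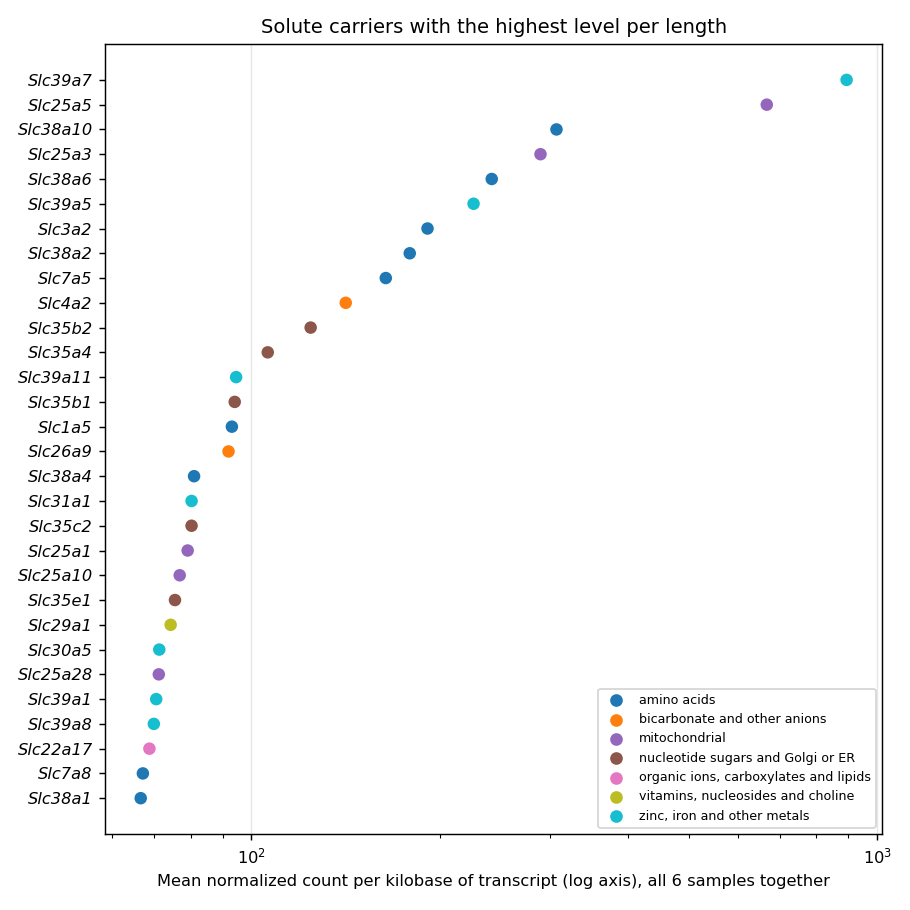
Level of the 30 solute carriers with the highest mean normalized count per kilobase of transcript (x axis, log scale, knockout and control libraries together), coloured by substrate group. Slc39a7 lies farthest right at 894 per kilobase and Slc25a5 is next at 666.

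The glucose carriers of family 2 are missing from the set. The authors' deposited table held 9 of them, and the highest, the fructose carrier Slc2a5, had a mean normalized count of 49.0. Slc2a5 was the gene just under the minimum, with Slc52a2, a riboflavin carrier, at 47.8 in the authors' deposited table. Just inside it were Slc25a43 at 52.6 and Slc35e3 at 53.6 in the authors' deposited table. Slc2a1 and Slc2a2, the glucose carriers of most cells and of beta cells, do not appear under these symbols in the authors' deposited table. Their levels are therefore not known here. The sugar carriers within the set were Slc50a1, a sugar efflux carrier, and Slc5a3. Slc30a8 was also under the minimum, with a mean normalized count of 44.1 and a p of 0.236 in the authors' deposited table. Its reconstructed log2 fold change was -2.35 ± 1.95 (SE). Slc30a2, a zinc exporter of secretory cells, had a mean normalized count of 43.3, a positive sign, and, in the authors' deposited table, a p of 0.00565 with an adjusted p of 0.312; its size could not be determined.

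Promoter sequences are shown for 4 carriers whose levels or values the text returns to. They are the 250 bases before the start site, from RefSeq (GRCm38.p6), printed in the direction of the gene. Capitals mark matches on either strand of 3 motifs. The GC box was searched as GGGCGG. The CCAAT box was searched by its own letters. The amino acid response element, bound by the stress factor Atf4, was searched as TGATGNAA. Slc39a7, the carrier with the highest level, Slc1a4, an amino acid carrier with an unadjusted p under 0.05, and Slc30a7, a zinc carrier of the Golgi, are shown beside Slc7a11, the cystine carrier, which holds the response element.
Slc39a7, chr17:34031691-34031940, minus strand: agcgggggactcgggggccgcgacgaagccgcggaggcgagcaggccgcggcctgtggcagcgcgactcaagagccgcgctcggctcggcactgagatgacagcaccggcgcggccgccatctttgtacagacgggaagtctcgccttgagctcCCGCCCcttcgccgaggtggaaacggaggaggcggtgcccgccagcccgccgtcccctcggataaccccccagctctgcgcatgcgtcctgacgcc
Slc1a4, chr11:20332714-20332963, minus strand: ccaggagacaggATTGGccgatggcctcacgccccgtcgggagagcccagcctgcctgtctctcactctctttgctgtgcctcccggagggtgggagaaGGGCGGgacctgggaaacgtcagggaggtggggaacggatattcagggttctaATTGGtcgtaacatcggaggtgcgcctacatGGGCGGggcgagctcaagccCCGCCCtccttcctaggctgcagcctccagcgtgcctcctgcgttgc
Slc30a7, chr3:116007407-116007656, minus strand: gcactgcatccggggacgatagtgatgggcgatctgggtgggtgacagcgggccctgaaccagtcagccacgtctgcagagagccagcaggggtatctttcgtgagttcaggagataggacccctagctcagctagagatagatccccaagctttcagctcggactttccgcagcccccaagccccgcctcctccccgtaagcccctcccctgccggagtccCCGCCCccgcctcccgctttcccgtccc
Slc7a11, chr3:50443614-50443863, minus strand: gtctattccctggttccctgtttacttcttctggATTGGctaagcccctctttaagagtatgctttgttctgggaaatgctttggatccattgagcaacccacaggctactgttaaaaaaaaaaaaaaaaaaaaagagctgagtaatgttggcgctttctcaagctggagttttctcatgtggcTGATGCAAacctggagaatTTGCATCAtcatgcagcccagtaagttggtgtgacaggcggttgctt

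The printed window of Slc39a7 is 72.4% G or C, those of Slc1a4 and Slc30a7 are 64.8% each, and that of Slc7a11 is 43.2%. Slc7a11 holds 2 copies of the response element, 1 on each strand. Shares count a gene once if the 250 bases before any of its listed start sites hold the motif. Of 91 carriers matched to a promoter, 3 held the element (3.30%), namely Slc7a11, Slc50a1 and Slc9a9. The share was 2.40% of 6583 genes at the same minimum mean count and 3.90% of all 27018 genes. GC boxes stood in 73.6% of the 91 carrier promoters and in 66.9% of the 6583. CCAAT boxes stood in 40.7% of the carrier promoters and in 41.1% of the 6583. A core of the metal response element (TGCNCNC), searched on both strands, stood in 60.4% of the 91 carrier promoters and in 58.2% of the 6583. Among metal carriers it stood in 11 of the 16 matched promoters. In other groups its share ran from 46.7% for amino acid carriers to 100% for the 2 sugar carriers. The 4 printed windows hold 2 copies in Slc39a7 and 0 in Slc30a7, Slc1a4 and Slc7a11. A TATA box (TATAAA) stood in 8.79% of the carrier promoters and in 7.87% of the 6583. The unfolded protein response core TGACGTGG stood in only 2 of the 91 carrier promoters (2.20%), and in 61 of the 6583 (0.927%). The longer endoplasmic reticulum stress elements ERSE and ERSE-II matched 0 of the 91 carrier promoters, and 0.228% and 0.0760% of the 6583. All were searched on both strands; the letters of the CCAAT box lie within those of ERSE and, on the other strand, overlap ERSE-II. A match describes letters only.

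No solute carrier passed the authors' test. Of 119 carriers with an adjusted p, 0 had one under 0.05 in the authors' deposited table, where 0.743% of all genes tested (90 of 12108) and 0.688% of genes at the same minimum mean count were called. At an unadjusted p under 0.05, 7 of 119 carriers (5.88%) passed in the authors' deposited table, beside 5.44% of the 8142 genes at that minimum, a share near the background. All 7 had a negative sign. The background was 3.21% of genes negative and 2.24% positive. By sign alone, 73 of the 120 carriers were negative and 47 positive, against 50.2% negative among the 8217 genes at the minimum. The median reconstructed log2 fold change was -0.16 over the 115 carriers with a size, and -0.01 over the 7973 genes with one. These are descriptions of the set, and no test was made of it.

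The precision of the data limits what this says. The standard errors of the carriers ran from 0.29 to 1.90 with a median of 0.83. The largest p called in the authors' deposited table was 0.000347. A carrier with the median error would have needed a log2 fold change of 2.96 to reach it, and the one with the smallest error a log2 fold change of 1.02. For 3 of the 115 carriers (2.61%), all of amino acids, the whole 95% interval lay within a 2-fold change in either direction. The share was 6.71% (535 of 7973) over all genes with a size at the same minimum mean count.

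**Figure D2:**
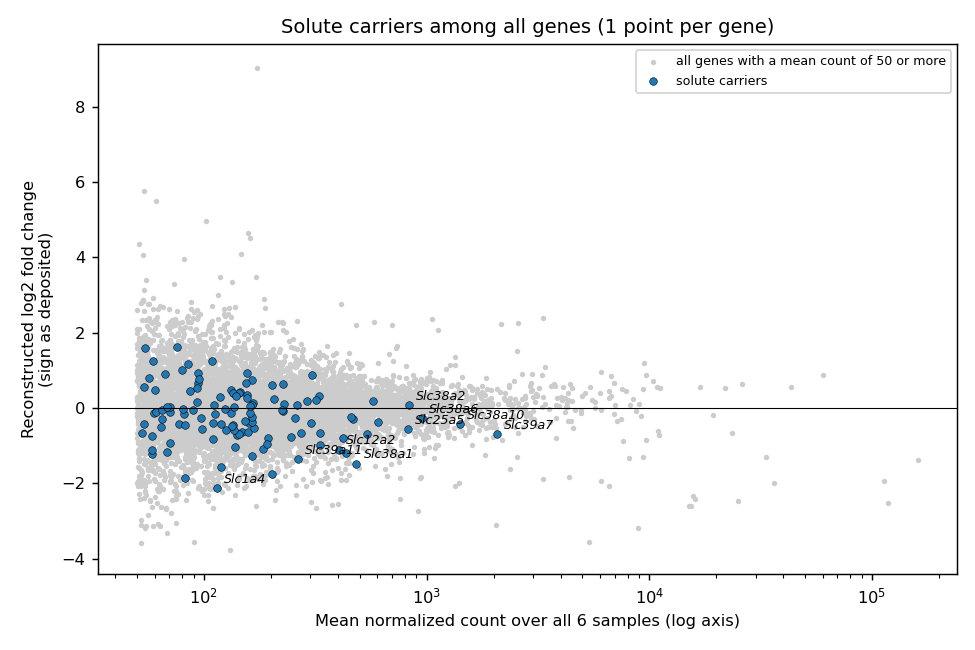
Reconstructed log2 fold change (y axis, sign as deposited) against mean normalized count (x axis, log scale) for solute carriers (blue) and all 7973 genes with a mean count of 50 or more and a size (grey), 1 point per gene. The carriers with a size lie within the cloud of other genes, from -2.13 to 1.62, and Slc39a7 is the one farthest right.

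Amino acid carriers form the largest group together with the mitochondrial ones, with 23 members each. Of the 23, 17 had a negative and 6 a positive sign, 2 had an unadjusted p under 0.05, and 0 were called in the authors' deposited table. Their median reconstructed log2 fold change was -0.42. Over all genes at the minimum mean count, 50.2% were negative. By the authors' DESeq2 test, 5.44% of genes there had an unadjusted p under 0.05 and 0.688% were called. These shares stand beside the counts of each group and family below. At so low a share called, 0 in a group of this size does not set it apart. Slc38a1, which brings glutamine and other neutral amino acids into cells with sodium (Entrez gene 105727; chromosome 15), had the smallest p of all carriers. It stood at -1.47 ± 0.43 (SE), a 2.78-fold difference, with a 95% interval from -2.32 to -0.62. In the authors' deposited table its p was 0.000627, at rank 106 of all genes, and its adjusted p of 0.0716 did not pass. Its neighbours on chromosome 15 had values near 0. Slc38a2, a stress-induced carrier of the same amino acids whose gene lies 43954 bases from it, was at 0.08 ± 0.42 (SE). Slc38a4, farther along the same cluster, was at 0.22 ± 0.58 (SE). The intervals of Slc38a1 and Slc38a2 overlap between -0.73 and -0.62, and the difference between these genes was not tested.

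Slc1a4, a sodium-coupled carrier of alanine, serine and cysteine, had the most negative value of the carriers with a size, -2.13 ± 0.96 (SE). In the authors' deposited table its p was 0.0322 and its adjusted p 0.690. Its wide interval ran from -4.01 to -0.24. Slc1a5, the glutamine carrier of the same family, was at -0.28 ± 0.57 and Slc1a3, a glutamate carrier, at -0.59 ± 1.17 (SE).

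The heteromeric carriers pair a heavy chain with a light chain. Slc3a2, the heavy chain, was at -0.70 ± 0.64 (SE). Its light chains lay on both sides of 0. Slc7a5, which exchanges large neutral amino acids, was at 0.19 ± 0.47, Slc7a8, with a similar range of substrates, at -0.66 ± 0.53, and Slc7a11, the cystine/glutamate exchanger, at -0.93 ± 1.67 (SE). Slc7a11 had a mean normalized count of 70.1 in the authors' deposited table, which left its interval open from -4.20 to 2.35. Slc3a1, the heavy chain of the kidney and gut, had a mean normalized count of 5.61 in the authors' deposited table. Slc16a10, an aromatic amino acid carrier also under the minimum, was at 0.38 ± 1.43 (SE).

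The cationic amino acid carriers Slc7a1 and Slc7a2, which import arginine and lysine, were at -0.80 ± 0.55 and -0.79 ± 0.63 (SE). In all, 5 of the 6 members of family 7 were negative. Slc38a10, the most abundant carrier of the group by count, was at -0.43 ± 0.29 (SE; p = 0.127 in the authors' deposited table). Slc43a1, a carrier of branched-chain amino acids that is abundant in adult pancreas, was at -0.16 ± 0.87 (SE). None of these intervals excludes 0.

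Zinc, iron and other metals had 20 carriers, 12 negative and 8 positive, with a median of -0.18. In the authors' deposited table, 2 had an unadjusted p under 0.05 and 0 were called. The shares over all genes at the minimum mean count were 5.44% and 0.688%. Slc39a7 (Entrez gene 14977; chromosome 17) was at -0.69 ± 0.30 (SE), with a 95% interval from -1.28 to -0.11. In the authors' deposited table its mean normalized count was 2074, its p 0.0199 and its adjusted p 0.572. Slc39a11, a zinc carrier that overlaps the gene of the Golgi complex subunit Cog1, was at -1.36 ± 0.68 (SE; p = 0.0478 and adjusted p = 0.770 in the authors' deposited table). Slc30a7, which loads zinc into the Golgi, was at -1.75 ± 0.89 (SE). Its 95% interval, -3.49 to -0.02, just excluded 0, while its p in the authors' deposited table was 0.0526. Another Golgi exporter of this kind, Slc30a5, was at -0.08 ± 0.53 (SE).

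Of the zinc carriers of the cell surface, Slc39a5 was at -0.24 ± 0.64, and Slc30a1, which exports zinc at the plasma membrane, at 0.60 ± 0.68 (SE). Slc39a8 and Slc39a14, importers of zinc, manganese and iron, were at -0.77 ± 0.67 and -0.96 ± 0.97 (SE). Over both zinc families, 10 of 16 members were negative. Whether carriers of the secretory pathway differ from those of the surface was not tested.

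Both copper carriers lay on opposite sides of 0. Slc31a1, the copper importer, whose gene overlaps Fkbp15, was at -0.97 ± 0.52 (SE). Slc31a2, which acts in endosomes and whose gene lies 62171 bases from it on chromosome 4, was at 1.26 ± 0.81 (SE). The p values of Slc31a1 and Slc31a2 were 0.0619 and 0.128 in the authors' deposited table. The iron exporter Slc40a1 was at -1.08 ± 0.83 (SE). None of these passed, and the difference between both copper carriers was not tested. Metallothioneins, the metal-binding proteins induced by zinc, had positive values: Mt1 was at 0.96 ± 0.88 and Mt2 at 1.09 ± 1.36 (SE), with neither past the test.

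Inorganic cation carriers had 12 members, 6 of each sign, with a median of -0.43 over 11 with a size. That median rests on the missing size of the positive member Slc8b1: with a wider tolerance, which gives Slc8b1 a size, it was -0.0058 over 12. Slc12a2, which loads sodium, potassium and chloride into secretory cells at the basolateral membrane, was at -1.11 ± 0.50 (SE), with a 95% interval from -2.08 to -0.13. In the authors' deposited table its p was 0.0249 and its adjusted p 0.621. The potassium-chloride exporters of the same family ran from -1.05 ± 0.87 for Slc12a7 to 0.67 ± 0.92 for Slc12a4 (SE). Both sodium/calcium exchangers of family 8 had a positive sign. Slc8a1, the exchanger of heart and smooth muscle, was at 0.88 ± 0.49 (SE; p = 0.0728), and Slc8b1, its mitochondrial relative, had a p of 0.0669, both in the authors' deposited table.

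Bicarbonate and other anions had 6 carriers, 3 of each sign, and a median of -0.13. Slc4a4, which brings bicarbonate into duct and acinar cells with sodium, was at 0.07 ± 0.54 (SE), with a 95% interval from -0.98 to 1.13. Slc4a2, the chloride/bicarbonate exchanger, was at -0.38 ± 0.38 (SE), with an interval from -1.13 to 0.37. Slc26a9, a chloride carrier of epithelia, had the smallest p of the group, 0.0642 in the authors' deposited table, and stood at -1.20 ± 0.65 (SE). Slc4a1, the anion exchanger of red cells, was at 0.63 ± 0.83 (SE). Slc25a37, which brings iron into red cell mitochondria, was at 0.10 ± 0.68 (SE). Both are red cell genes, and of 5 erythroid markers at the minimum mean count 3 had a negative and 2 a positive sign, with a median of -0.02. Over all 9 erythroid genes of the table, 3 were negative and 6 positive, with a median of 0.22 over 8 with a size. Gata1, a transcription factor of red cell precursors under the minimum mean count, was called with a positive sign in the authors' deposited table (adjusted p = 0.0235). The part of red cells in the values of Slc4a1 and Slc25a37 was not tested.

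Mitochondrial carriers were evenly split, with 12 negative and 11 positive of 23, a median of -0.06 and 0 with an unadjusted p under 0.05. Slc25a5 was at -0.56 ± 0.42 and Slc25a3 at -0.29 ± 0.40 (SE). Slc25a22, a glutamate carrier, had the most positive value of the carriers with a size, 1.62 ± 1.17 (SE). Its interval ran from -0.67 to 3.90. The adenine nucleotide carrier of muscle, Slc25a4, had a mean normalized count of 4.48 in the authors' deposited table.

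**Figure D3:**
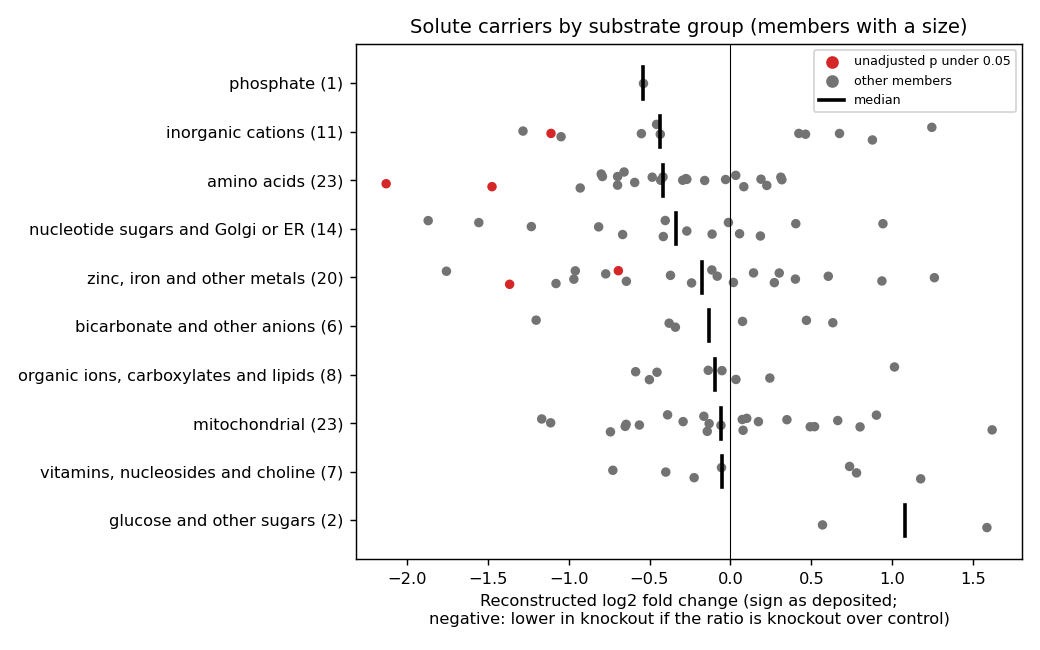
Reconstructed log2 fold change (x axis; sign as in the table) of the 115 solute carriers with a size, 1 point per gene, by substrate group with the number in brackets; black bars are medians. All 5 red points, with an unadjusted p under 0.05, lie left of 0, and the medians run from -0.54 for the single phosphate carrier to 1.08 for 2 sugar carriers.

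Nucleotide sugar, Golgi and endoplasmic reticulum carriers had 10 negative and 4 positive members of 14, with a median of -0.34. None had an unadjusted p under 0.05 by the authors' DESeq2 test (0 of 14). Slc35f5, whose substrate is not settled, was at -1.55 ± 0.83 (SE; p = 0.0669 in the authors' deposited table), and Slc35e1, an orphan, at -0.67 ± 0.52 (SE). Slc35b1, which exchanges ATP and ADP across the endoplasmic reticulum membrane, was at 0.40 ± 0.75 (SE), and Slc35e3, another orphan, at -0.41 ± 1.46 (SE).

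Among carriers of organic ions, carboxylates and lipids, 8 of 12 were negative, and the median was -0.10 over 8 with a size. Slc18b1, a vesicular polyamine carrier, and Slc16a7, a monocarboxylate carrier of high affinity, had p values of 0.0394 and 0.0441 in the authors' deposited table, both with a negative sign. Their sizes could not be determined, and their adjusted p values were 0.734 and 0.750 in the authors' deposited table. Slc16a1, the lactate and pyruvate carrier that is kept off in beta cells, was at -0.05 ± 0.66 (SE).

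The small groups held few values. Among carriers of vitamins, nucleosides and choline, 4 of 7 were negative, the median was -0.06, and Slc29a1, a nucleoside carrier, stood at 0.74 ± 0.71 beside Slc44a3, a choline carrier-like protein, at -0.73 ± 0.75 (SE). Slc50a1 and Slc5a3 were at 0.57 ± 1.03 and 1.58 ± 1.89 (SE). Slc20a2, the single phosphate carrier, was at -0.54 ± 0.77 (SE).

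**Figure D4:**
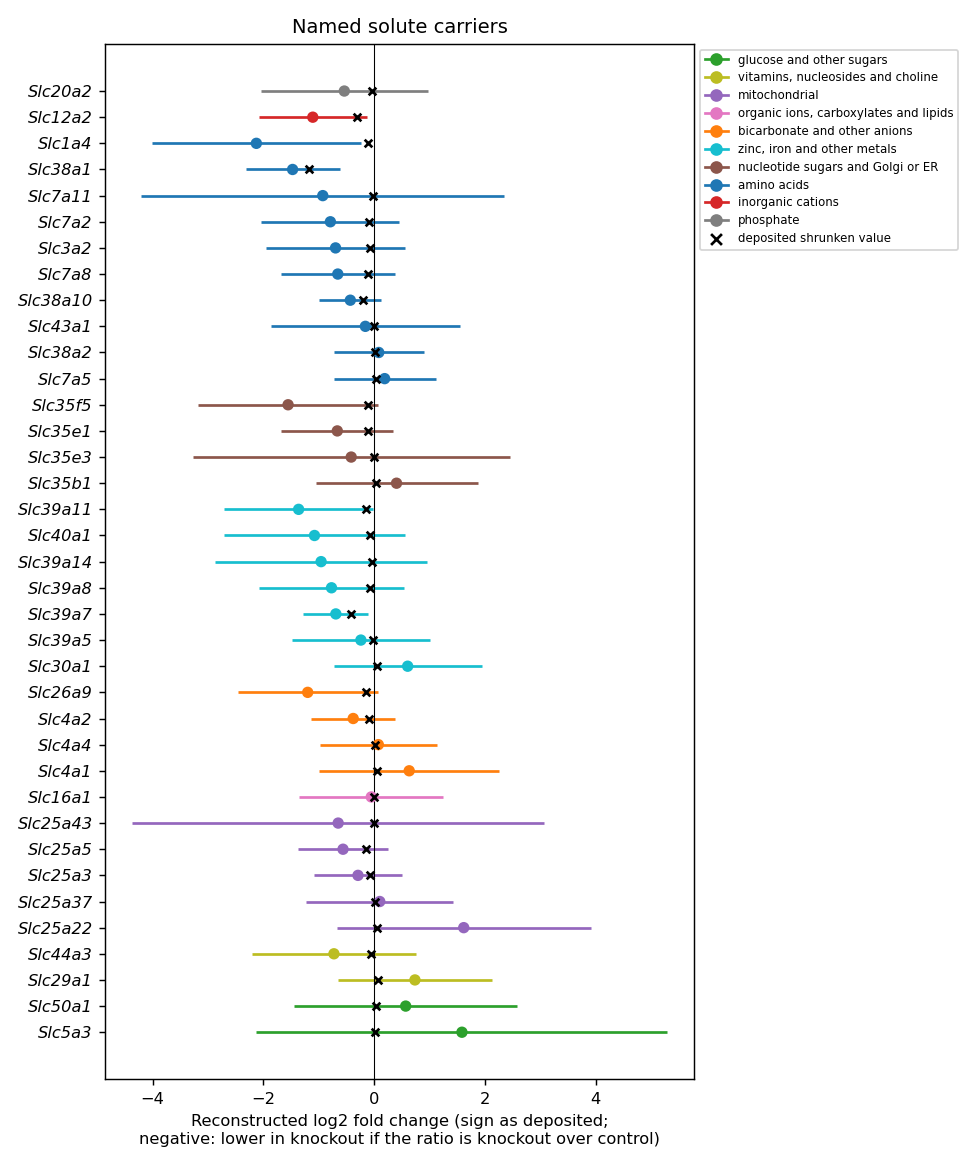
Named solute carriers with a size, by substrate group: circles are reconstructed log2 fold changes with 95% intervals (x axis, sign as deposited), and crosses are the shrunken ones of the authors. The intervals of Slc38a1, Slc39a7, Slc12a2, Slc1a4 and Slc39a11 lie wholly left of 0, while most crosses sit near 0.

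Channels, pumps and other proteins that work beside the carriers were listed separately. Of 36 in the authors' deposited table, 27 reached the minimum mean count; 0 of these were called, 3 had a negative sign and 1 a positive sign at an unadjusted p under 0.05. Over all genes at the minimum, 3.21% passed that unadjusted threshold with a negative and 2.24% with a positive sign, and 0.688% were called. The median reconstructed log2 fold change of these partners was -0.11. Atp2a3, a calcium pump of the endoplasmic reticulum, had the smallest p, 0.000696, with an adjusted p of 0.0753 as the authors' deposited table gives them, and stood at -2.06 ± 0.61 (SE). Atp2a2, the calcium pump of most cells, was at -0.77 ± 0.33 (SE; p = 0.0184 in the authors' deposited table). Aqp12, a water channel of acinar cells, was at -1.58 ± 0.58 (SE; p = 0.00558 and adjusted p = 0.310 in the authors' deposited table). Itpr2, a calcium release channel, went the other way at 1.45 ± 0.62 (SE; p = 0.0198 in the authors' deposited table). Atp2c2, a Golgi calcium and manganese pump under the minimum mean count, had a negative sign, and its p in the authors' deposited table was 0.00469, with an adjusted p of 0.281. Of 21 solute carrier proteins under other symbols, 9 reached the minimum; 0 had an unadjusted p under 0.05 by the authors' DESeq2 test, and their median was 0.47. Slco1c1 and Slco4a1, organic anion carriers far under the minimum, had the smallest p of the list, 0.134 and 0.148 in the authors' deposited table. Those with the smallest p at the minimum were Xpr1, a phosphate exporter, at 1.01 ± 0.71, and Spns2, a lipid exporter, at -1.53 ± 1.08 (SE).

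Markers of cell types differed between the groups; in bulk tissue, fewer cells of a type and less RNA per cell cannot be told apart. Digestive enzyme genes were high, with a highest mean normalized count of 161670 in the authors' deposited table, as the labelled tissue has them. Of 21 acinar enzyme genes at the minimum mean count, 15 were called with a negative sign and 0 with a positive one, 18 negative and 2 positive ones had an unadjusted p under 0.05, and their median was -1.92. Of 13 endocrine genes, 4 were called negative, and the median was -2.30. Genes shared by epithelial cells had 12 negative of 13, 1 called, and a median of -0.49, and 7 of 8 ductal genes were negative, with a median of -0.52. Mesenchyme genes had 13 positive of 15 with a median of 0.46, and all 11 liver genes were positive, with a median of 2.08; 0 of either list were called, and 5 of each had an unadjusted p under 0.05 by the authors' DESeq2 test. Endothelial and leukocyte genes had medians of 0.12 and 0.33, each over 8 genes with 6 positive. The part of these differences in the values of the solute carriers was not tested.

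**Figure D5:**
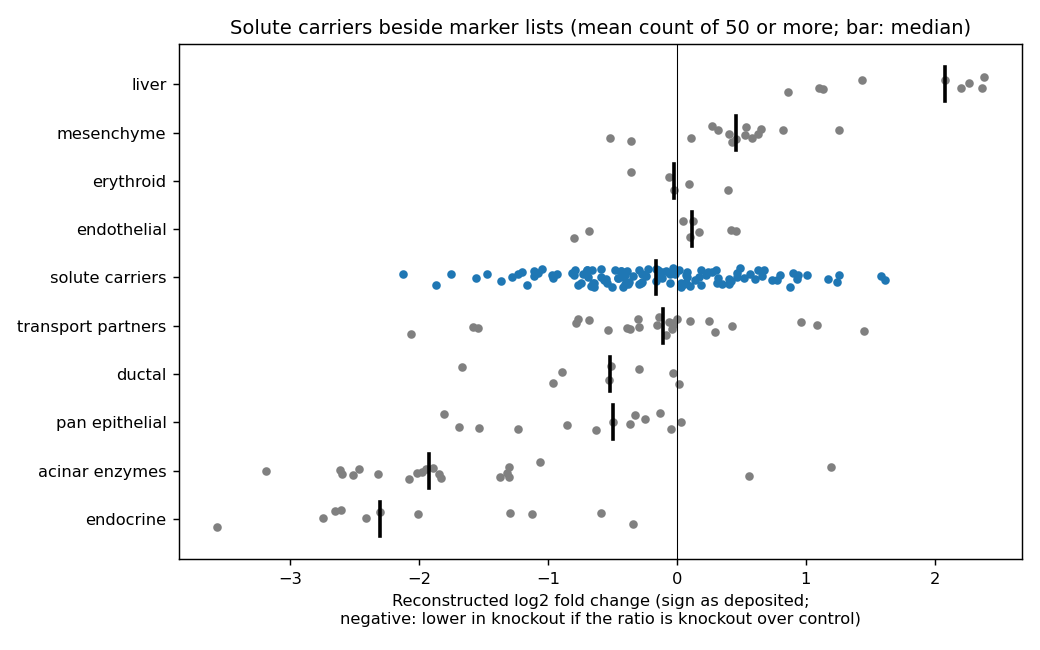
Reconstructed log2 fold change (x axis; sign as in the table) of solute carriers (blue) and marker lists (grey), 1 point per gene with a mean count of 50 or more and a size; black bars are medians. Acinar enzymes and endocrine genes lie lowest, at -1.92 and -2.30, liver genes highest at 2.08, and solute carriers around -0.16.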

How the data were processed

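Bulk RNA sequencing of 6 dorsal pancreas samples, 3 knockout and 3 control, grouped by title, is given as 1 table. Trimmomatic, Salmon and DESeq2, with the builds GRCm38 and mm10, are named per the submitters' processing notes; their versions, the annotation and the strand setting are not stated. The signal, a mean normalized count over all libraries, the log2 fold change with its error, the p-value and the adjusted p-value were deposited by the authors. No gene was tested again, and each p-value reflects only how these 6 samples vary.

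The deposited fold changes were unshrunken here by assuming a Cauchy prior of a common scale and a quadratic likelihood. The scale was set to 0.3103, where most genes returned their deposited p-value. The z of the reconstructed value was within 0.1 of the deposited one for 97.0% of genes with a mean count of 50 or more. Over all genes with a p this share was 88.6%. Genes outside this tolerance or without a p have no size. Tested on simulated data for 7973 genes under the same model, 100% of values were recovered to within 0.05, which checks the arithmetic only. Intervals are 95% and cover the authors' error only. Positions are from RefSeq GRCm38.p6, matched by Entrez gene for 120 of 120 carriers, and 48 of the 120 overlap another annotated gene. Python 3.11.15, pandas 2.3.3 and scipy 1.17.1 were used.

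The carriers, substrate groups (by family number), gene lists and thresholds were chosen with earlier results of these data known. Named genes are those with an unadjusted p under 0.05, the 2 with the smallest p and the one with the highest mean count of each substrate group, those next to the minimum mean count, a set panel, and of the partner lists the 2 with the smallest p. The first 10 by level per kilobase, members of a named gene's family or cluster (such as Slc30a7, Slc31a2, Slc38a4, Slc8a1, Slc7a1 and Slc12a7), the metallothioneins, Gata1, Aqp12, Atp2a2, Itpr2, Xpr1 and Spns2 were named after their values were seen. Slc26a6, Slc33a1 and Slc38a5 of the panel, like Slc2a1 and Slc2a2, do not appear under these symbols in the authors' deposited table and were not analysed. A further panel gene is not reported here. The 2-fold bound was also chosen then.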

Additional observations from a re-analysis of the deposited data

How the results depend on the processing

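The count of carriers called, 0 at an adjusted p under 0.05, stayed at 0 with a minimum mean count of 20. With the adjustment run over all 14386 genes with a p, it was also 0. At an adjusted p under 0.01 or with a minimum of 100 it could only be 0, as neither setting can add a carrier. It was 1 (Slc38a1) at an adjusted p under 0.1 and 7 at an unadjusted p under 0.05. The medians of all carriers and of the 10 substrate groups moved by less than the median standard error of their members with the deposited shrunken values, a tolerance of 0.2, values relative to the median of all genes (which was -0.01), and minimum mean counts of 20 or 100, where no sugar carrier is left at 100. Within that, the median of all carriers was -0.29 at a minimum of 100, and that of inorganic cations -0.75 at a minimum of 100 and -0.0058 at a tolerance of 0.2. The bound is the standard error of a single gene, not of a median. Staying within it cannot show that the medians are stable. With 0.8 times the fitted prior scale only 2 carriers matched the deposited p, with a median of -1.18, and the amino acid median became -1.47 from 1 gene; with the wider scale tried the inorganic cation median became -1.43 from 1 gene. Both the genes left and their values change with the scale: Slc12a2, the 1 cation carrier left, was at -1.43 with the wider and -0.89 with the narrower scale. No paired analysis was possible because the table holds no values per sample, and leaving out each replicate was not run for the same reason. Precision is limited by count: the median standard error was 0.83 for carriers at the minimum and 2.41 for the 92 rows with a size below it.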
